A study of Mus musculus with 29 samples.

Results

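The immunoproteasome and the MHC class I presentation genes were described across all libraries of an ageing study of mouse skeletal muscle. The 10 genes were picked by symbol from the 22537 genes of the count table: the inducible catalytic subunits Psmb8, Psmb9 and Psmb10, the PA28 activator subunits Psme1 and Psme2, the peptide transporter subunits Tap1 and Tap2, the class I light chain B2m and the heavy chains H2-K1 and H2-D1. The tibialis anterior, a fast muscle of the lower leg, was taken whole, and its poly-A RNA was sequenced from male C57BL/6 mice at 6 months (6m, 7 mice), 24 months (24m, 7 mice) and 28 months or older (28m, 8 mice). No treatment or engineered allele is named for the mice, all of which had taken tests of physical function, wheel running among them. The 24m libraries were sequenced in a first run together with the 7 mice at 6m, and those 7 mice were prepared again for a second run, beside the 28m mice, for 29 libraries in all. Each old group was compared with the 6m libraries of its own run. The text describing the series has the sizes of the old groups swapped (8 and 7), and the sample labels were followed here. Each library came from 1 mouse, and the muscle was not separated into cell types, so fewer cells of a type and less RNA per cell cannot be told apart.

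The proteasome is a barrel of protein rings that cuts unneeded or damaged proteins into peptides. In cells that receive interferon signals, Psmb8, Psmb9 and Psmb10 take the places of the constitutive catalytic subunits Psmb5, Psmb6 and Psmb7, and the PA28 cap made of Psme1 and Psme2 opens the barrel. TAP then carries peptides into the endoplasmic reticulum, where they are loaded onto a class I heavy chain paired with B2m and displayed at the cell surface to CD8 T cells. Muscle fibres show little class I on their surface in health, and more of it in inflammatory muscle disease.

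Total counts per library were between 17633475 and 33499162. Levels are given as CPM, the counts of a gene relative to the total of its library, scaled by TMM over the 29 libraries. The 9 markers of fast muscle fibres summed to 120380 to 216730 CPM in every library, so the markers of the labelled tissue were abundant. Fold changes were tested with edgeR's quasi-likelihood test over all genes that passed a filter on low counts, with Benjamini-Hochberg adjustment, and a gene was called at an adjusted p under 0.05. All 10 genes passed the filter in each comparison.

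Of the 10 genes, 6 lie on chromosome 17 of GRCm38 in or near the major histocompatibility complex. Psmb9 (17:34181987-34187764, minus strand) and Tap1 (17:34187553-34197225, plus strand) start head to head and overlap by 212 bases. Psmb8 (17:34197721-34201454) follows Tap1 after 495 bases, and Tap2 (17:34203527-34216321) follows Psmb8 after 2072 bases, both on the plus strand. H2-K1 (17:33996017-34000347, minus strand) and H2-D1 (17:35262730-35267499, plus strand) lie to either side of them. Psme1 (14:55578123-55581529, plus strand) and Psme2 (14:55587441-55591113, minus strand) are neighbours on chromosome 14, separated by 5911 bases. B2m is at 2:122147686-122153083 on the plus strand and Psmb10 at 8:105935735-105938444 on the minus strand.

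The promoters of the 3 class I chains and of the Psmb9 and Tap1 pair are shown because these genes act in 1 pathway and, in the case of the pair, share a promoter region. Each window holds 250 bases before and 50 bases after the start of a RefSeq transcript in GRCm38.p6, on the strand of the gene. Windows were found for 9 of the 10 genes, and Tap2 had none. Capitals mark matches to the motifs searched on both strands, GAAANNGAA (paired interferon regulatory factor sites), TTCNNNGAA (a gamma-activated site), TGACGTCA (a cAMP response element) and the NF-kappaB consensus.
B2m, chr2:122147437-122147736, plus strand: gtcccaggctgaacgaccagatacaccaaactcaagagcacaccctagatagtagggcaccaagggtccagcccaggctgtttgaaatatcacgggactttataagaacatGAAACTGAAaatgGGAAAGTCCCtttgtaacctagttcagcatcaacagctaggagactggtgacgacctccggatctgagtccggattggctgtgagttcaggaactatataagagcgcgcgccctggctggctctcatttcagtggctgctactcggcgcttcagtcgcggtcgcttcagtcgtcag
H2-K1, chr17:34000298-34000597, minus strand: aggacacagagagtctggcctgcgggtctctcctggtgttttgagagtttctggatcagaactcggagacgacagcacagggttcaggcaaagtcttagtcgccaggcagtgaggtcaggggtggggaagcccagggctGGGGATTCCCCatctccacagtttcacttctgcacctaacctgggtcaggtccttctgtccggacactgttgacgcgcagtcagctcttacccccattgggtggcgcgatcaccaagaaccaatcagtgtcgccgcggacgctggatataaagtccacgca
H2-D1, chr17:35262844-35263143, plus strand: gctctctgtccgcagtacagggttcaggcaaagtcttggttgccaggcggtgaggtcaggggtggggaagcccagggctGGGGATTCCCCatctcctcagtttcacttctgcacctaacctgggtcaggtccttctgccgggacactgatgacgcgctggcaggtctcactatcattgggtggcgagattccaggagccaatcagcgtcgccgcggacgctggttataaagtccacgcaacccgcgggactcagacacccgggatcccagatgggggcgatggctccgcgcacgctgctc
Tap1, chr17:34187306-34187605, plus strand: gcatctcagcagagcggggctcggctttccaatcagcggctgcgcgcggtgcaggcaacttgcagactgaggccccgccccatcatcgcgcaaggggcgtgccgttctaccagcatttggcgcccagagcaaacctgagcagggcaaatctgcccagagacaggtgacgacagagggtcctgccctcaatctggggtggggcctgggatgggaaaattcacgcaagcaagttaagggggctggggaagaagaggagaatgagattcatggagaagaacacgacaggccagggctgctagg

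The B2m window held GAAACTGAA from base -139 to -131 and an NF-kappaB match from -126 to -117, counted from the start base as 0. H2-K1 and H2-D1 each held overlapping NF-kappaB matches on the letters GGGGATTCCCC and shared an identical stretch of 47 bases around it. NF-kappaB matches were found in 4.50% of 32851 promoter windows of the same length, and GAAANNGAA in 8.56%. The Tap1 window held none of the motifs, and 275 of its bases are also the Psmb9 window read on the other strand. Outside the windows shown, TTCNNNGAA was found in Psmb8 (8.30% of windows) and GAAANNGAA in Psme1. TGACGTCA was in none of the 9 genes and in 1.79% of windows. A match of letters is a description and says nothing of binding.

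Among the 6m libraries of the second run, B2m had the highest level per length, with a mean of 103.8 CPM per kilobase of exon. H2-D1 followed with 37.8 and H2-K1 with 30.5 CPM per kilobase, and their libraries overlapped on that scale. Psme1 stood at 14.2 and Psme2 at 10.7 CPM per kilobase, which overlapped too, and Psmb10 at 6.39 CPM per kilobase was apart from its neighbours. Below Tap2 at 3.92 CPM per kilobase, Psmb8 stood at 1.94, Tap1 at 1.19 and Psmb9 at 0.829 CPM per kilobase, where each overlapped the next. At 28m the order of the means was the same except that H2-K1, at 63.2 CPM per kilobase, stood beside H2-D1 at 62.7. Thus the class I chains were the abundant transcripts and Psmb8, Tap1 and Psmb9 the rare ones, with 1.94 to 17.97 CPM for Psmb9 over all libraries.

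All 10 genes were called higher at 28m, and their log2 fold changes against 6m ran from 0.55 to 1.45. Of all 12994 genes tested, 24.3% were called higher in this comparison. Psmb8, Psmb9 and H2-K1 also passed a log2 fold change of 1, the size the study used for DEGs, against 2.33% of the genes tested. The median log2 fold change of the 10 genes was 0.91, and that of all genes 0.01. The genes were called with each single mouse left out in turn, but without 28m replicate 3 their median was 0.74 and H2-K1, Psmb9 and the rest fell under a log2 fold change of 1, with Psmb8 at 1.04. B2m and Psme1 were not called once a dependence on gene length and GC content was taken out, nor was Psme1 with the first-run 6m libraries as the baseline.

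**Figure D1:**
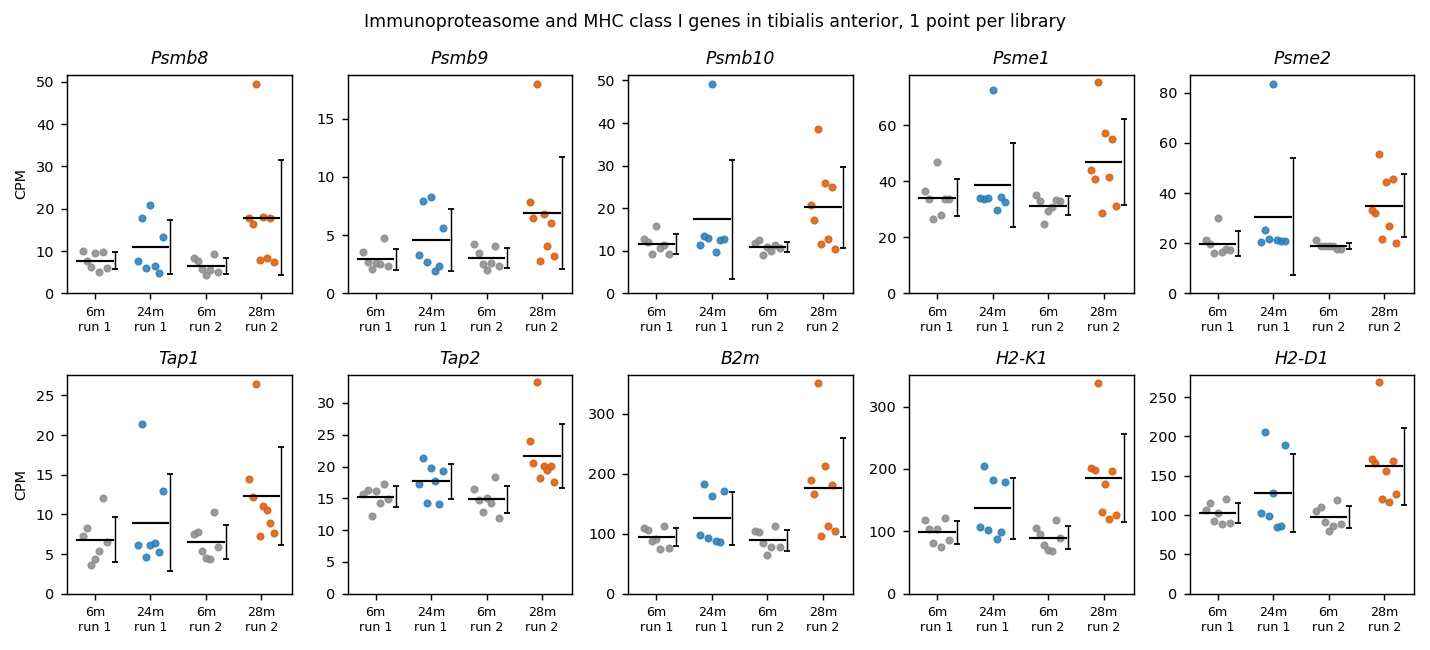
CPM of each gene (vertical axis, linear from 0) in the 4 groups (horizontal axis), with 1 point per library, a line at the group mean and a bar of 1 SD to each side. In every panel the highest 28m point is replicate 3, and the 28m points of H2-K1 lie above all 6m points of the second run.

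Psmb8, the inducible chymotrypsin-like subunit, had the largest change of the group. It was between 4.24 and 9.23 CPM at 6m, with a median of 5.70, and between 7.42 and 49.5 CPM at 28m, with a median of 17.1. Of the 8 mice at 28m, 5 were above every 6m library and the groups overlapped. The log2 fold change was 1.45 (SE 0.36, adjusted p = 0.0051). Psmb8 shares 9.97% of its exonic 75-base sequences, the length of the reads, with a transcript on the opposite strand, and the strand setting of the counting was not given in the sources used here.

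Psmb9, which replaces Psmb6, was the rarest of the genes. It was between 2.02 and 4.24 CPM at 6m (median 2.63) and between 2.74 and 17.97 CPM at 28m (median 6.26). Again 5 of 8 mice were above every 6m library. Its log2 fold change was 1.18 (SE 0.34, adjusted p = 0.011). Psmb10, the inducible trypsin-like subunit, was between 8.90 and 12.4 CPM at 6m (median 10.8) and between 10.3 and 38.7 CPM at 28m (median 18.9). In 6 of 8 mice it was above every 6m library, and the log2 fold change was 0.90 (SE 0.24, adjusted p = 0.0071), which became 0.48 with gene length and GC content taken out.

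Psme1 and Psme2 form the PA28 cap. Psme1 was between 24.9 and 35.1 CPM at 6m (median 32.8) and between 28.5 and 75.5 CPM at 28m (median 42.7). Of the 28m mice 2 lay within the 6m range and 6 above it. The log2 fold change was 0.58 (SE 0.18, adjusted p = 0.013), but 0.30 (adjusted p = 0.095) with length and GC taken out. Psme2 was between 17.5 and 21.5 CPM at 6m (median 18.9) and between 20.2 and 55.7 CPM at 28m (median 32.6). Only the lowest of the 28m mice fell inside the narrow 6m range, and the log2 fold change was 0.90 (SE 0.19, adjusted p = 0.0021), which became 0.44 with length and GC taken out. Psme2 shares 22.9% of its 75-base sequences with the near-identical Psme2b, so its counts are uncertain.

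Tap1 and Tap2 form the transporter that passes peptides into the endoplasmic reticulum. Tap1 was between 4.33 and 10.2 CPM at 6m (median 5.84) and between 7.27 and 26.4 CPM at 28m (median 10.8). The groups overlapped, with 5 of 8 mice above every 6m library. Its log2 fold change was 0.91 (SE 0.27, adjusted p = 0.011). Tap2 was between 11.98 and 18.4 CPM at 6m (median 14.7) and between 17.6 and 33.4 CPM at 28m (median 20.1). Its log2 fold change was 0.55 (SE 0.13, adjusted p = 0.0042), and 6 of 8 mice were above every 6m library. Genes on the opposite strand overlap 18.5% of the exonic bases of Tap2, which limits its counts in the same way as those of Psmb8.

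B2m, the light chain that all class I molecules need, was between 64.1 and 113 CPM at 6m (median 84.1) and between 96.4 and 351 CPM at 28m (median 174). The lower 2 of the 8 old mice lay within the 6m range. The log2 fold change was 0.99 (SE 0.24, adjusted p = 0.0042), and 0.16 (adjusted p = 0.326) with length and GC taken out. H2-K1, a classical heavy chain, was between 68.8 and 118 CPM at 6m (median 89.4) and between 119 and 338 CPM at 28m (median 186). It was the one gene of the 10 whose groups did not overlap, although the gap between them was narrow. How many of all genes had groups without overlap was not counted. The log2 fold change of H2-K1 was 1.06 (SE 0.20, adjusted p = 0.0012). H2-D1, the other classical heavy chain of this strain, was between 80.2 and 119 CPM at 6m (median 91.4) and between 117 and 269 CPM at 28m (median 161). It was above every 6m library in 7 of 8 mice, and its log2 fold change was 0.74 (SE 0.16, adjusted p = 0.0023).

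At 24m none of the 10 genes was called by edgeR's quasi-likelihood test, and the same count of 0 was given by DESeq2 and limma-voom. In this comparison 0.0611% of 13103 genes were called higher and 11.8% had an unadjusted p under 0.05, as did 1 of the 10, H2-K1. All 10 log2 fold changes were above 0, from 0.20 for Psme1 to 0.65 for Psmb9, with adjusted p-values from 0.399 to 0.664. Their median was 0.46, against 0.03 for all genes.

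The 24m mice did not move as a group. Psmb8 was between 5.03 and 9.90 CPM at 6m in the first run and between 4.71 and 20.9 CPM at 24m, with medians of 7.63 and 7.62 CPM. H2-K1 was between 74.5 and 121 CPM at 6m and between 87.1 and 205 CPM at 24m, with medians of 104 and 107 CPM. For both genes the medians were nearly equal while 3 of 7 mice at 24m, replicates 2, 4 and 7, were above every 6m library. Psmb9, B2m and H2-D1 also had 3 of 7 mice above every 6m library, and Tap2 had 5. Tap1 was between 3.66 and 12.1 CPM at 6m and between 4.64 and 21.3 CPM at 24m, where replicates 2 and 7 were the highest. Psmb10, Psme1 and Psme2 were above the 6m range in replicate 4 alone, at 49.1, 72.5 and 83.5 CPM, while the other 24m mice did not pass 13.6, 34.4 and 25.2 CPM. Without that mouse the log2 fold change of Psmb10 went from 0.61 to 0.07, that of Psme2 from 0.64 to 0.14 and that of Psme1 from 0.20 to -0.04. Without replicate 2 that of Tap1 went from 0.41 to 0.03.

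**Figure D2:**
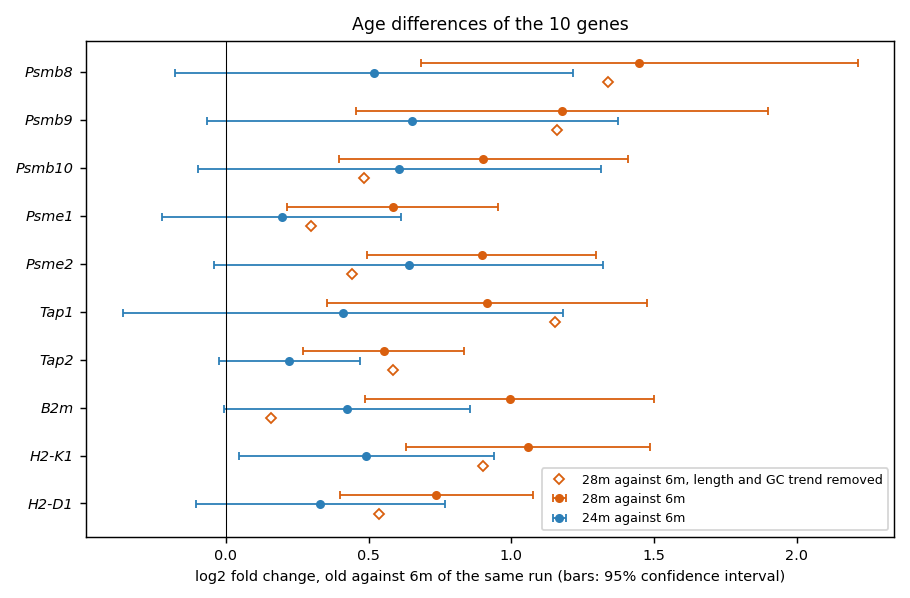
Log2 fold change (horizontal axis) of each gene at 28m and at 24m against the 6m libraries of the same run, with bars for the 95% confidence interval; diamonds give the 28m values once length and GC were corrected for. The 28m intervals of all 10 genes lie above 0, and the 24m intervals of 9 genes include 0, H2-K1 being the exception.

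Whether the rise at 28m exceeded that at 24m was tested in a model of all 29 libraries. The edgeR fit had no block for the mouse and treated the libraries of a mouse sequenced in both runs as separate. Its lack of calls therefore does not settle whether the age effects differed. None of the 10 genes, and 0 of all 13455 genes tested, was called for a difference between the age effects by edgeR's quasi-likelihood test, with 1611 genes and none of the 10 at an unadjusted p under 0.05. The 28m effect was the larger in each, by 0.27 for Psme2 to 0.95 for Psmb8 on the log2 scale, and the intervals were wide, from -0.10 to 2.004 for Psmb8 and from -0.03 to 1.21 for H2-K1. With limma-voom and the mouse as a block 0 of the 10 were called and 5 had an unadjusted p under 0.05. The limma-voom fit differed from the edgeR fit in method as well as in the block, so what the block alone changed was not tested. Without 24m replicate 4, Psme2 was called (difference 0.79, adjusted p = 0.044), with 1657 genes called over the table.

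Since the 6m mice were sequenced in both runs, the runs could be compared within the same animals. The second libraries differed from the first by log2 fold changes of -0.23 for Psmb8 to 0.05 for Psmb9, 9 of 10 below 0. With the mouse as a block, edgeR's quasi-likelihood test called 0 of the 10 and 0 of all 12884 genes tested, with 1052 genes and none of the 10 at an unadjusted p under 0.05. Without replicate 4, 186 genes and none of the 10 were called. With the first-run 6m libraries as the baseline instead, 9 of the 10 genes were called higher at 28m, and Psme1 was not called (log2 fold change 0.46, adjusted p = 0.078).

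The constitutive proteasome was higher at 28m as well. Psmb5, Psmb6 and Psmb7, the subunits that the inducible ones replace, rose by log2 fold changes of 0.72 (SE 0.12, adjusted p = 0.00054), 0.83 (SE 0.14, adjusted p = 0.00068) and 0.65 (SE 0.13, adjusted p = 0.0014). Of the other subunits of the core particle 11 of 11 were called higher, between 0.50 and 1.01 with a median of 0.75, among them Psmb4 (1.01), Psmb1 (0.90), Psma7 (0.86) and Psma5 (0.81). With length and GC taken out 2 of the 3 counterparts and 9 of these 11 were called higher, with medians of 0.40 and 0.33. Of all genes tested at 28m, 24.3% were called higher before that removal and 18.98% after it. At 24m none of these 14 genes was called, and the median of the 11 was 0.63. Replicate 4 was the highest of the 24m mice in all of them, with Psmb4 at 1239 CPM against 170 CPM in the next mouse, and without it the median of the 11 was 0.12.

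The ratio of each inducible subunit to its counterpart was therefore taken within each library, from counts per kilobase. Psmb8 was between 1.70 and 3.89% of Psmb5 at 6m in the second run (median 2.40%) and between 1.85 and 8.82% at 28m (median 3.98%). The log2 ratio was 0.53 higher at 28m, which did not pass an exact permutation test over the 6435 assignments of the mice (two-sided p = 0.102, 0.612 adjusted over the 6 ratios tested), and 4 of 8 mice were above every 6m library. Psmb9 to Psmb6 was 0.21 higher (exact permutation p = 0.428) and Psmb10 to Psmb7 0.16 higher (exact permutation p = 0.282). At 24m the log2 ratios differed from those at 6m by -0.07, 0.05 and 0.11 in the same order, with exact permutation p-values of 0.838, 0.912 and 0.367. With length and GC taken out, the log2 ratio of Psmb8 to Psmb5 was 0.96 higher at 28m (exact permutation p = 0.0267, 0.160 adjusted over the 6 ratios), with 5 of 8 mice above every 6m library, that of Psmb9 to Psmb6 0.56 higher (exact permutation p = 0.0987) and that of Psmb10 to Psmb7 0.02 higher (exact permutation p = 0.889). No ratio passed the adjusted test on either scale.

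**Figure D3:**
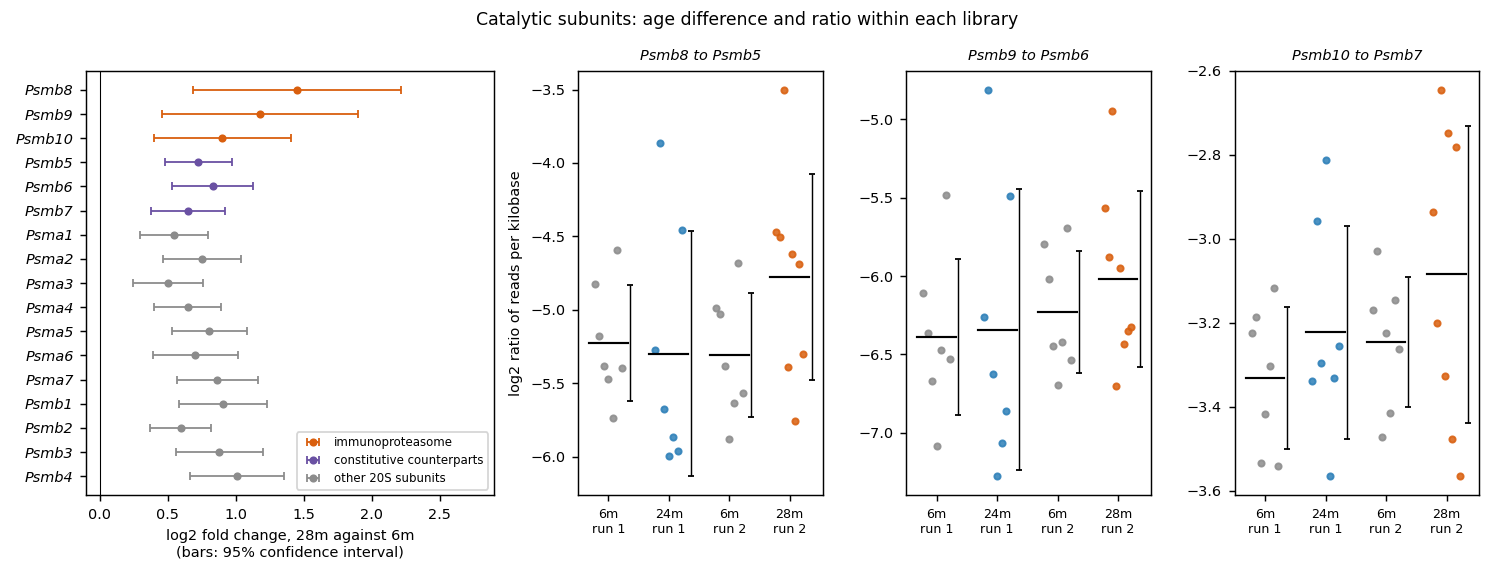
Left, log2 fold change at 28m against 6m (horizontal axis) for inducible, constitutive catalytic and other core subunits, with 95% confidence intervals; right, log2 ratio of an inducible subunit to its counterpart in reads per kilobase (vertical axis), 1 point per library with the group mean and a bar of 1 SD to each side. All intervals on the left lie above 0, and the ratios of 28m and 6m libraries overlap in all 3 panels.

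Other genes of the pathway moved unevenly at 28m. Of 8 proteasome activators, assembly factors and an inhibitor, 5 were called higher, all of them assembly factors: Psmg4 (1.32), Pomp (1.02), Psmg3 (0.62), Psmg2 (0.55) and Psmg1 (0.46). Psme4, the subunit of another activator, was lower with a log2 fold change of -0.71 (SE 0.14, adjusted p = 0.0014). Of 6 genes of peptide loading and trimming, the chaperones Calr (0.23) and Pdia3 (0.34) were called higher and Erap1, the aminopeptidase that trims peptides, lower (-0.44, SE 0.14, adjusted p = 0.020). With the dependence on gene length and GC content taken out, a correction given last for the 10 genes, Calr (0.03) and Pdia3 (0.14) were not called. Tapbp, the tapasin that bridges TAP and class I, had a log2 fold change of 0.11 (adjusted p = 0.351) and was not called. The same removal left Psmg1 (-0.07) and Psmg2 (0.07) uncalled, added the inhibitor Psmf1 (0.32) to the genes called higher, and left Psme4 and Erap1 lower. These counts stand beside 24.3% of all genes called higher and 22.9% called lower.

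Among 18 non-classical and class I-like genes, 11 passed the filter, 7 were called higher and none lower. Over all genes tested the shares were 24.3% higher and 22.9% lower. H2-Q4 (1.003), H2-T10 (1.02), H2-Q6 (0.87) and H2-T23 (0.86) had the lowest p-values. With the length and GC trend removed 3 were called higher, H2-T10 (0.90), H2-Q4 (0.78) and H2-T23 (0.69), and 1 lower, H2-T24 (-0.66). That removal left 18.98% of all genes tested called higher, and the median of the 11 went from 0.73 to 0.18. Genes of this family are alike in sequence, H2-K1 sharing 3.10% and H2-D1 5.56% of their 75-base sequences with others, so how reads were divided among them is uncertain. Of 19 regulators of class I and of interferon signalling tested, 2 were called higher and 3 lower, where 24.3% and 22.9% of all genes were. The interferon-regulated factors Irf7 (1.16, SE 0.25, adjusted p = 0.0021) and Irf9 (0.34) were higher. With length and GC taken out 3 were called higher, Irf8 (0.53) besides these, and the same 3 lower. Irf2 (-0.55, SE 0.10, adjusted p = 0.00074), Jak2 (-0.67) and Jak1 (-0.48), the kinases of interferon receptors, were lower. Nlrc5, the transactivator of class I genes, was looked up after the values were seen, and was not called (0.28, SE 0.28). At 24m none of the genes of these lists was called.

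The mice differed widely within the 28m group. Taking the 6m mean of the run as 0 on the log2 scale, the mean of the 10 genes was 1.89 in replicate 3, 1.03 in replicate 5, 1.01 in replicate 1, 0.98 in replicate 7 and 0.86 in replicate 2. It was 0.42 in replicate 6, 0.21 in replicate 8 and 0.19 in replicate 4, while the 6m libraries of the second run lay between -0.27 and 0.32. Replicate 3 was the highest of the 28m mice in all 10 genes, with Psmb8 at 49.5 CPM against 18.1 CPM in the next mouse. Replicates 1, 2, 3 and 5 were above every 6m library in all 10 genes, replicate 7 in 9, replicate 6 in 7, replicate 4 in 3 and replicate 8 in 2. At 24m the highest means were 1.07 in replicate 4, 0.86 in replicate 2 and 0.60 in replicate 7, and the other 4 mice lay between -0.14 and 0.07.

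**Figure D4:**
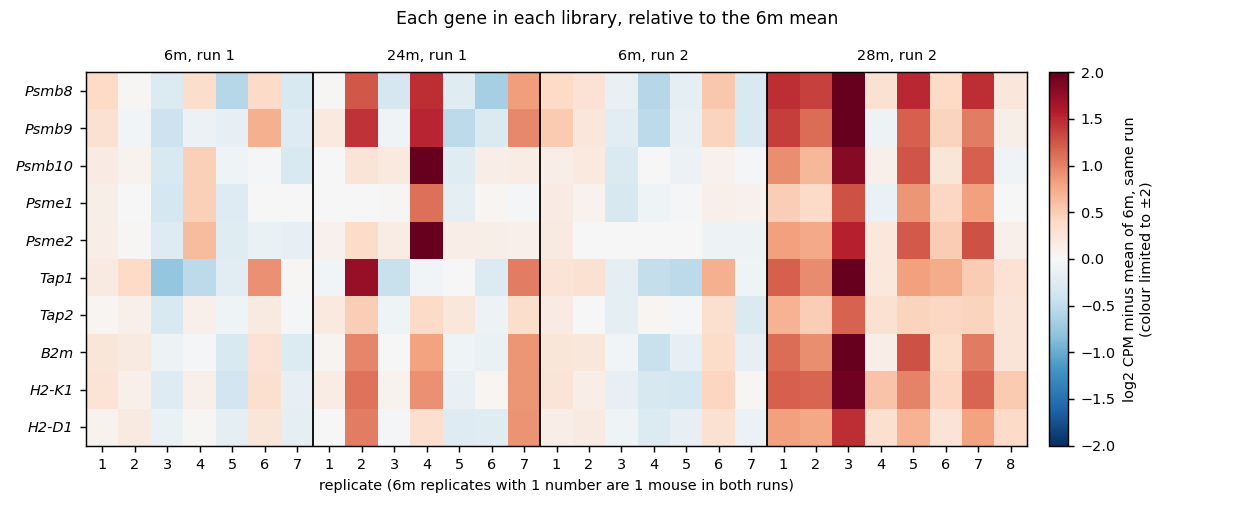
Log2 CPM of each gene (vertical axis) in each library (horizontal axis, by replicate within the 4 groups) minus the mean of the 6m libraries of the same run, as colour limited to 2 in each direction. Replicate 3 at 28m is dark in all genes, and at 24m replicate 4 is dark in Psmb10 and Psme2 but not in Tap1, which is dark in replicate 2.

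The 10 genes varied together from mouse to mouse to different degrees. Over the deviations of the 29 libraries from their group means, Pearson's r was 0.96 for Psmb8 with B2m, 0.96 for Psmb10 with Psme2, 0.95 for Psmb8 with Psmb9 and 0.94 for H2-K1 with H2-D1. The lowest was 0.14, for Psme2 with Tap1, and Tap1 also had low values with Psmb10 (0.25) and Psme1 (0.26). Without 24m replicate 4 and 28m replicate 3, r was 0.17 for Psme2 with Tap1 and 0.90 for Psmb10 with Psme2. In the 15 libraries of the second run alone Tap1 had r = 0.57 with Psme2, 0.70 with Psmb10 and 0.70 with Psme1. The libraries of a 6m mouse come from 1 animal and all libraries share the effects of depth and run, so these values are given as a description.

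Outside the 10 genes, those that followed their mean deviation most closely among 13445 genes were Bst2 (r = 0.95 over 29 libraries), Irf1 (0.90), H2-T23 (0.89), Ifi47 (0.87), H2-M3 (0.86), Gbp3 (0.85), AW112010 (0.84) and Ptma (0.84). Bst2, which tethers budding viruses to the cell, had a log2 fold change of 1.44 at 28m (SE 0.31, adjusted p = 0.0021). Ifi47 (1.41) and Gbp3 (1.27), GTPases induced by interferon, were called as well. Irf1, a factor that binds the interferon response elements of class I genes, had a log2 fold change of 0.45 (SE 0.21) and was not called (adjusted p = 0.092). None of the 8 was called at 24m.

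Class I genes are abundant in leukocytes and endothelial cells, so the markers of other cell types were read in the same libraries. Of 27 leukocyte markers 15 passed the filter at 28m, and Cd52 (1.73) and Tyrobp (1.28) were called higher and none lower. Of all genes tested 24.3% were called higher and 22.9% lower. The 15 had a median log2 fold change of 0.89 at 28m and 1.13 at 24m (0.97 without replicate 4), where none was called, and those called at neither age included Ptprc (0.09 at 28m), Cd68 (1.08) and Lyz2 (1.05). With the length and GC trend removed Cd52 (1.07) was still called and Tyrobp (0.46) was not, and the median of the 15 at 28m was 0.36. The 9 markers of T and NK cells in the list had few reads, with at most 47 counts for any of them in a library. Summed over the 27 markers, the level was 70.5 to 237 CPM at 6m (median 105) and 97.9 to 758 CPM at 28m (median 122). The highest value belonged to replicate 7, and replicate 3, the highest of the 28m mice in all 10 genes, was second with 161 CPM, inside the 6m range. The T and NK markers alone, summed after these values were seen, reached 0.31 to 0.90 CPM at 6m (median 0.63) and 0.43 to 3.55 CPM at 28m (median 1.19). Here replicate 3 was the highest, with 74 counts over the 9 markers, followed by replicate 7 with 71 and replicate 5 with 64, where the 6m libraries of that run held 6 to 22 counts. The part of T and NK cells in the levels of the 10 genes was not tested. At 24m replicate 2 had 695 CPM, replicate 7 had 363 CPM and replicate 4 had 339 CPM, where the first-run 6m libraries were between 68.6 and 246 CPM. The 3 mice at 24m with the most leukocyte marker RNA were also those highest in H2-K1. By the T and NK markers, replicate 2 at 24m had 182 counts and replicate 5 had 90, ahead of replicates 4 and 7 with 57 and 41, while H2-K1 was lowest in replicate 5. The part of leukocytes in these levels was not tested.

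Of 12 endothelial markers 8 were called lower at 28m and 2 higher, where 22.9% of all genes were called lower, and their sum was 403 to 567.8 CPM against 622 to 722 CPM at 6m in the same run. The lowest first-run library of the 6m mice had 514 CPM, inside the 28m range, and with the length and GC trend removed 6 were called lower and 1 higher. Of 10 markers of fibroblasts and their progenitors 6 were called lower and 1 higher (3 and 0 with the length and GC trend removed), with sums of 753 to 2057 CPM at 28m and 1401 to 4829 CPM at 6m. Of 6 adipocyte markers Retn (1.63) and Fabp4 (0.76) were called higher (Fabp4 alone with that trend removed), and their sum was 141 to 474 CPM at 28m against 156 to 169 CPM at 6m. Of 6 Schwann cell markers 1 was called higher, and with that trend removed 2 higher and 2 lower. Of 9 fast fibre markers 4 were called higher and 1 lower, and with that trend removed 1 higher and 2 lower.

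**Figure D5:**
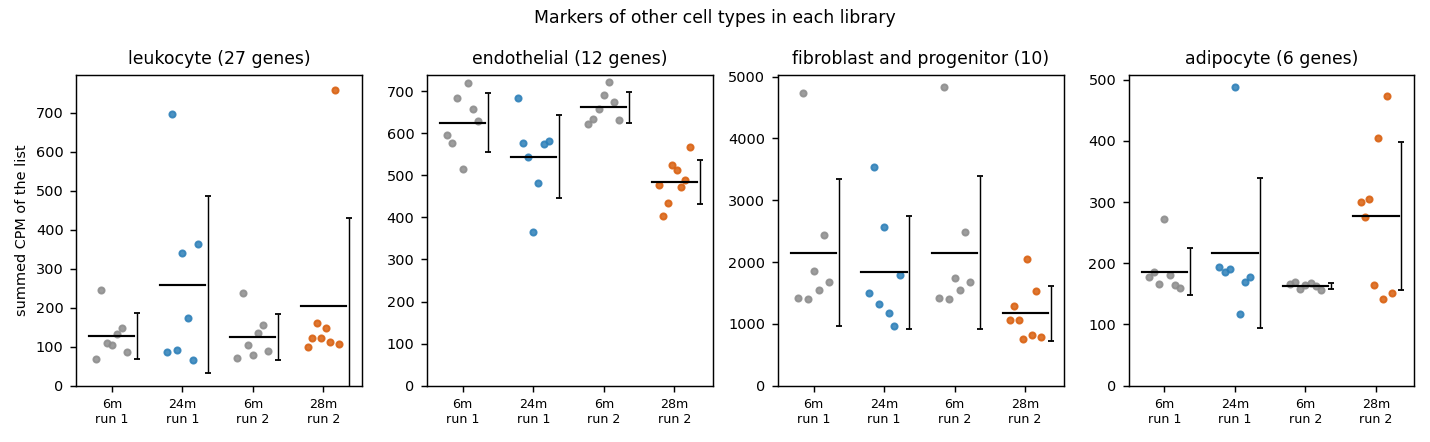
Summed CPM of the markers of 4 other cell types (vertical axes, linear from 0) in the 4 groups, 1 point per library, with the group mean and a bar of 1 SD to each side. The highest leukocyte sums are those of 1 mouse at 24m (695 CPM) and 1 at 28m (758 CPM), and the endothelial sums of 28m lie below all 6m sums of the second run.

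Gene length moved with the comparison at 28m. Over 12870 genes with a known length, Spearman's rho between exonic length and the log2 fold change was -0.54 at 28m. Shorter genes were thus higher in these mice. At 24m rho was -0.27 over 12976 genes, -0.02 without 24m replicate 4 and -0.20 without replicate 4 of both groups. Between the 6m libraries of the same mice, second run against first, it was 0.46 over 12762 genes. The median exonic length of the 10 genes was 2758.5 bases against 4491 bases for the genes tested. After the dependence on length and GC content had been taken out, library by library, 8 of the 10 genes were called at 28m, where 18.98% of the genes tested were called higher. Psmb8 (1.34), Psmb9 (1.16) and Tap1 (1.15) passed a log2 fold change of 1, followed by H2-K1 (0.90), Tap2 (0.59), H2-D1 (0.54), Psmb10 (0.48) and Psme2 (0.44). B2m, the shortest at 860 bases, and Psme1 were the genes that lost their call.

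The length trend differed between libraries. Relative to the 6m mean of the run, rho between length and the log2 level was -0.51, -0.49, -0.53, -0.20, -0.51, -0.31, -0.53 and -0.17 in 28m replicates 1 to 8. In the second-run 6m libraries it lay between -0.14 and 0.12. It was -0.40 in 24m replicate 4 and -0.55 in 6m replicate 4 of the first run. With the trend removed the mean of the 10 genes was 0.84, 0.70, 1.66, 0.13, 0.82, 0.32, 0.65 and 0.18 in 28m replicates 1 to 8, where the 6m libraries of the second run reached 0.32. In 24m replicate 4 the mean was 0.86, while B2m, at -0.90, was below the 6m mean there. The part that these length trends had in the rise at 28m was not tested beyond this removal.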

How the data were processed

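Poly-A RNA of whole tibialis anterior muscles was sequenced as 75-base single-end reads. Alignment to mm10 was done by the authors with STAR 2.5.4b, who deposited the counts of reads per gene without normalization, with the strand setting not given in the sources used here. No column lacked a mapped sample. Genes were kept with filterByExpr, scaled by TMM and tested with the quasi-likelihood test of edgeR 4.0.16 in R 4.3.3, with Benjamini-Hochberg adjustment over all genes tested. Standard errors were derived from the test. The libraries of a mouse at 6m were matched by the column names, and the mouse was a block in the comparison of the runs at 6m. The mouse was not a block in the edgeR fit of the difference between the age effects. Alternatives used DESeq2 1.42.0, limma-voom (limma 3.58.1), other scalings, filters and 6m libraries, each replicate left out, and offsets for a trend with exonic length and GC content (natural splines). Lengths came from GENCODE, where 20205 symbols matched directly, 1896 through a synonym and 436 not at all. Log2 CPM used a prior count of 2. The edgeR tests were checked on simulated counts with the same spread in each group. For the difference between the age effects no minimum recovery of true changes was required. The 10 genes and the lists were chosen with earlier results of these data known. The rule for genes named from the other lists was those with the lowest p-values at 28m, at most 4 a list. Genes beyond it (Psmg1, Psmg3, Psmf1, Irf8, Irf9, Nlrc5, Ptprc, H2-T24, T and NK cell markers) were named after their values were seen.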

Additional observations from a re-analysis of the deposited data

Results flagged for a closer look

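Each gene was examined in each of the 4 groups for a library far from the others, by Dixon's criterion at its 95% critical value, which chance alone passes in about 1 of 20 groups. It was passed in 12 of 40 cases. At 28m replicate 3 stood above the other mice in 7 genes, at 49.5 CPM for Psmb8, 17.97 CPM for Psmb9, 26.4 CPM for Tap1, 33.4 CPM for Tap2, 351 CPM for B2m, 338 CPM for H2-K1 and 269 CPM for H2-D1. At 24m replicate 4 stood above the others in Psmb10 (49.1 CPM), Psme1 (72.5 CPM) and Psme2 (83.5 CPM). Psme2 was also high in 6m replicate 4 of the first run (30.2 CPM) and in 6m replicate 1 of the second run (21.5 CPM).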

How the results depend on the processing

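Of 681 alternative values, 665 were scored as unchanged. A fold change or ratio so scored kept its direction and its side of the threshold. A count of called genes could differ somewhat, so that a drop from 10 to 8 was scored as unchanged. All 10 genes were called at 28m under each alternative except with first-run libraries as the 6m baseline (9) and with the length and GC trend removed (8), where Psme1 (0.46 and 0.30) and B2m (0.16) were lost. The number past a log2 fold change of 1 was between 1 and 5. At 24m 0 of the 10 were called throughout. Psme1 at 24m was between -0.0406 and 0.282 with 1 replicate left out. The log2 ratio of Psmb8 to Psmb5 at 24m was 0.0099 against the 6m libraries of the other run, 0.0847 with the length and GC trend removed (added after seeing the data) and between -0.313 and 0.0431 with 1 replicate left out. That of Psmb9 to Psmb6 was -0.113 and between -0.209 and 0.201. The genes called for a difference between the age effects were between 0 and 1 of the 10. Over all genes, 6140 were called at 28m and 2981 with the other 6m libraries, and 11 at 24m, against 215 by DESeq2, 152 in a fit of all libraries, 46 with the other 6m libraries and between 4 and 30 with 1 replicate left out. The 6m libraries of the runs, paired by mouse, gave 0 of the 10 called, from -0.23 to 0.05, and the fit with no replicate block gave 0 of the 10. Without 28m replicate 3 and 6m replicate 6 together the 10 were called at 28m, with a median of 0.78. The cause of these changes was not tested. Intervals cover the spread of 7 or 8 mice, and at 1.94 CPM the rarest value, of Psmb9, rests on few reads.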

Other observations

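Of the 7 mice at 6m, replicate 6 was above the other 6m mice in 6 of the 10 genes in the first run and again in 6 of the 10 in its second library. Its mean over the 10 genes was 0.29 above the 6m mean on the log2 scale in the first run and 0.32 in the second. Replicate 4 had a mean of 0.15 in the first run and -0.27 in the second, with Psmb8 at 9.57 and 4.24 CPM, while the libraries come from 1 mouse.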
